A study of Mus musculus with 14 samples.

Results

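Most subunits of the mitochondrial respiratory chain and of ATP synthase are encoded in the nucleus. Their RNA was followed here across 4 states of neural stem and progenitor cells (NSPCs) from mice. Members were protein-coding genes whose symbol starts with Nduf, Uqcr, Atp5 or Cox4 to Cox8, together with Sdha, Sdhb, Sdhc, Sdhd, Cyc1 and Cycs. The rule took 99 of the 53700 genes in the deposited table: 38 genes of complex I, 8 Ndufaf assembly factors, 4 of complex II, 9 of complex III, the cytochrome c gene Cycs, 21 of complex IV and 18 of complex V (ATP synthase). Ndufa4 and Ndufa4l2 were counted with complex IV, where their proteins are now placed. Another 17 rows with these names were annotated as pseudogenes and were left out, and the name Atp5o occurs on 2 gene IDs, of which 1 was close to 0.

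All libraries came from C57BL/6 NSPC RNA, poly-A selected and sequenced with a stranded kit. Proliferating cells were kept in FGF and EGF (replicates 1, 2, 4 and 5, n = 4) and quiescent cells were treated with BMP4 (replicates 1 to 4, n = 4). In the second experiment all cells were kept in FGF and EGF, and received an adeno-associated virus carrying either GFP (GFP control, n = 3) or Cre-GFP (Yme1l KO, n = 3). The labels call the KO cells wild-type mouse cells too, name no floxed allele, promoter or animal age, and do not say whether replicates are separate animals or cultures, so p-values measure the spread between these libraries, which may be technical.

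The respiratory chain passes electrons from NADH (complex I) and succinate (complex II) through complex III and cytochrome c to oxygen at complex IV, and ATP synthase uses the resulting proton gradient to make ATP. Complexes I, III, IV and V combine nuclear subunits with subunits made from mitochondrial DNA, and the Ndufaf proteins help to build complex I without staying in it. Adult neural stem cells are known to change their reliance on glycolysis, lipid oxidation and oxidative phosphorylation as they leave quiescence and differentiate. YME1L is a protease that sits in the inner membrane of mitochondria and runs on ATP, and Ndufb6 and Cox4 are among the proteins it has been described to act on.

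Many of these genes are known to carry binding sites for nuclear respiratory factor 1 (NRF1) close to their start. RefSeq promoters (GRCm38.p6) were matched for 77 of the 99 members, giving 82 windows of the 250 bases before the start. The palindromic NRF1 motif, GCGCA followed directly by its reverse complement TGCGC, was in 5 of these windows (6.10%), beside 0.782% of 32851 windows of all genes. The motif CCGGAAG, read by GABP and other ETS factors, was in 14 windows (17.1%), beside 6.91% of all windows. The Sp1 motif GGGCGGG was in 24 (29.3%), beside 23.4%, and the YY1 motif AAGATGGCG was in 1, that of Atp5j, beside 0.606%. Both strands were searched. The windows of all genes came from 27025 genes with no filter on gene type or level, so they are not matched to the members. These letters are a description of the windows and do not show binding.

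The 5 windows with the NRF1 motif are shown because their genes did not move together in the results that follow. They belong to Atp5g2 (chr15:102671048-102671297, minus strand), Atp5k (chr5:108434400-108434649, minus strand), Cox6a1 (chr5:115348959-115349208, minus strand), Ndufa11 (chr17:56717512-56717761, plus strand) and Ndufaf4 (chr4:24897833-24898082, plus strand). Each is written 5′ to 3′ on the gene's strand and ends at the base before the start. Capitals mark the NRF1 motif and, in Cox6a1, also the ETS motif on the opposite strand.
Atp5g2: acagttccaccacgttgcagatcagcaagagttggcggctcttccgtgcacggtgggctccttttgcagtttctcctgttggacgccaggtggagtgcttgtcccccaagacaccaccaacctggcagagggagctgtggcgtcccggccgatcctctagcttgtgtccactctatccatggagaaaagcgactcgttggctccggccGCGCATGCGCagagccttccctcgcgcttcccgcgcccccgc
Atp5k: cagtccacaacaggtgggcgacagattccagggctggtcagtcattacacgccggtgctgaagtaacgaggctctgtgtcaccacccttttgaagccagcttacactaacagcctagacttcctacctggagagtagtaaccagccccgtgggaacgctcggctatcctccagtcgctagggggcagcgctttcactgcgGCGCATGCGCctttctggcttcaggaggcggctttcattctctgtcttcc
Cox6a1: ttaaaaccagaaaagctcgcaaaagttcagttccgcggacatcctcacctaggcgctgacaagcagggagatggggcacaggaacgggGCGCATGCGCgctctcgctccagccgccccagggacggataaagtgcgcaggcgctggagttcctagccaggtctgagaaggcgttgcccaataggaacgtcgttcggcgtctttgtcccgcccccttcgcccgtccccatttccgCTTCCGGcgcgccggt
Ndufa11: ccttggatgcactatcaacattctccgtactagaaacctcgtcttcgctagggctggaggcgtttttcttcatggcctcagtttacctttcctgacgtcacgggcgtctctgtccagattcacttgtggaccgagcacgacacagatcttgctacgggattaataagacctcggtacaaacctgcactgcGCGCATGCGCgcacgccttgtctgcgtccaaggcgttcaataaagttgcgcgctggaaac
Ndufaf4: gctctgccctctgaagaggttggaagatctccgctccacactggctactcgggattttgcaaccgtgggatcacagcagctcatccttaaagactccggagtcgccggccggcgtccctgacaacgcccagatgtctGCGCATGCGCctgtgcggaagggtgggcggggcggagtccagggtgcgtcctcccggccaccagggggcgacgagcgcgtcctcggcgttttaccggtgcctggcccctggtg
The NRF1 motif began 42 to 60 bases before the start in Atp5g2, Atp5k and Ndufa11, 113 bases before it in Ndufaf4 and 162 bases before it in Cox6a1. Atp5g2 was lower in quiescent and in KO cells, Cox6a1 and Ndufa11 were higher in both, Ndufaf4 was lower in KO cells, and Atp5k was not called in either comparison (log2 fold changes of -0.09 and 0.07).

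Libraries held 6475099 to 8797750 counts (quiescent), 8331999 to 8992709 (proliferating), 9226080 to 10320736 (GFP control) and 9053124 to 9490756 (KO). Yme1l1, the targeted gene, was at 135, 124 and 121 counts per 1000000 (CPM) in the GFP controls and at 25.7, 25.6 and 22.9 CPM in the KO, a log2 fold change of -2.36 (SE 0.07, adjusted p = 5.89e-11). It was at 2.18 to 4.77 CPM in the proliferating libraries, which the labels give the same growth factors as the GFP controls. In quiescent replicates 1 to 4 it was at 4.85, 11.1, 3.91 and 4.88 CPM. Yme1l1 thus read lower in every library of the first experiment than in the KO libraries, so levels are compared only within an experiment. Quiescent replicate 2 and KO replicate 3 stood apart from their groups (chi-square per degree of freedom 6.79 to 9.07 and 6.61 to 7.12 against the others of the group, where other pairs of quiescent and KO libraries gave 1.93 to 3.56). All 7 proliferation genes listed, among them Mki67 and Mcm2, fell in both comparisons, from a summed 889.5 to 927 CPM (proliferating) to 132 to 152 CPM (quiescent) and from 2345 to 2419 CPM (GFP control) to 836 to 1307 CPM (KO). Of the NSPC markers listed, 10 of 11 were tested in each experiment, of which 3 rose and 6 fell with BMP4 and 1 rose and 5 fell in the KO, with summed levels of 4856 to 5013 CPM (proliferating), 4917 to 5652 CPM (quiescent), 5996 to 6120.3 CPM (GFP control) and 5084 to 5390.4 CPM (KO), and Prom1 was at or near 0. Summed levels of 5 mature astrocyte markers were 1610.0 to 1682 CPM in proliferating and 1268 to 1344 CPM in quiescent libraries, with 3 of them higher and Aldh1l1 lower, and 313 to 338 CPM in GFP control and 508 to 606 CPM in KO libraries, with 3 higher. Gjb6 was near 0 in both experiments and Aqp4 in the second. Of 6 microglial markers 1 was tested in quiescent cells and was higher (Tmem119), and their sum was 0 to 0.738 CPM in proliferating and 3.27 to 6.47 CPM in quiescent libraries, with Cx3cr1 and C1qa at 0. Of 6 endothelial and mural markers 1 was tested and was higher (Kdr), at sums of 1.79 to 3.21 and 9.60 to 13.5 CPM, with Cldn5 and Pdgfrb at 0. Of 6 oligodendrocyte lineage markers 2 of 3 tested were higher in quiescent cells (sums of 53.7 to 64.8 and 79.2 to 92.8 CPM) and 1 of 3 in the KO (85.0 to 89.0 and 104 to 110.2 CPM). Of 3 ependymal markers both tested were lower in quiescent cells (71.6 to 78.1 and 49.5 to 58.1 CPM), and the 1 tested in the KO was not called (15.3 to 19.8 and 19.1 to 26.3 CPM). In the KO experiment microglial sums were 2.68 to 4.18 CPM in controls and 3.82 to 5.59 CPM in the KO, and endothelial sums were at most 1.07 CPM. Of 6 neuronal markers, which summed to at most 20.8 CPM, 1 was higher (Dlx2) and 1 lower (Tubb3) in quiescent cells. The part of the proliferation and marker shifts in the results was not tested. In bulk RNA, fewer cells of a type and less RNA per cell cannot be told apart.

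Respiratory genes were among the abundant transcripts of every group. They took 1.73% ± 0.0221 of counts in proliferating, 1.53% ± 0.0298 in quiescent (SD, n = 4), 1.30% ± 0.0227 in GFP control and 1.33% ± 0.0146 in KO libraries (SD, n = 3). Per transcript (TPM, transcripts per 1000000, which corrects for length) the shares were 4.40% ± 0.0454, 4.42% ± 0.0743, 3.48% ± 0.0520 and 3.66% ± 0.0617. Quiescent libraries were thus all lower in counts, but not in TPM. Atp5b, the catalytic beta subunit of ATP synthase, led every group with 2338 ± 48.2 TPM in proliferating and 1904 ± 32.0 TPM in GFP control cells, where it ranked 45 and 54 among all genes. Cox8a followed with 1705 ± 82.8 and 1240.5 ± 43.2 TPM, and Cox4i1 was next in proliferating cells with 1546 ± 27.4 TPM. In GFP controls Atp5g3 (1233 ± 41.8 TPM) did not differ from Cox8a beyond the spread of the libraries.

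Assembly factors were far less abundant than the subunits they help to build. The median Ndufaf gene was at 20.9 to 23.9 TPM across proliferating libraries, where the median complex I gene was at 259 to 298 TPM, and at 26.8 to 29.6 TPM against 205 to 225 TPM across GFP controls. Members were also short: the median annotated transcript length of tested members was 704 bases, against 2180 bases over all genes tested in that experiment. They were spread over 19 chromosomes, with at most 9 on 1 of them.

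In quiescent cells the respiratory genes changed by small amounts and in both directions. Cycs, Ndufab1, Atp5g2, Ndufaf7, Cox7c, Ndufc2 and Ndufs7 were lower, and Atp5mpl, Ndufv3 and Ndufa3 were higher, and these 10 calls held under all 18 alternative settings that kept the call rule. Length-scaled counts, 1 of the 18, gave nearly the same fit as the main setting and are no separate check. Of the 89 members tested, 17 were called higher and 23 lower (adjusted p under 0.05, edgeR quasi-likelihood test with Benjamini-Hochberg adjustment over all 12245 genes). Over all genes tested 29.9% were higher and 35.5% lower, 65.4% in either direction, so fewer members than genes at large were called. The median log2 fold change was -0.04 over the members and -0.01 over all genes, and members ranged from -0.54 to 0.35. None was called at a change of at least 1.5-fold, the largest being 1.45-fold (Ndufaf2), while 38.9% of all genes were.

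The split of the calls moved with the scaling: 19 higher and 17 lower with RLE size factors, 3 and 49 with library size alone (which shifted the median of all genes to -0.15), 29 and 16 with the GC trend of each library taken out, and 34 and 8 with the length trend taken out. Without quiescent replicate 2 the calls were 37 higher and 13 lower, and the lower calls were 14, 11 and 10 without quiescent replicates 1, 3 and 4.

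**Figure D1:**
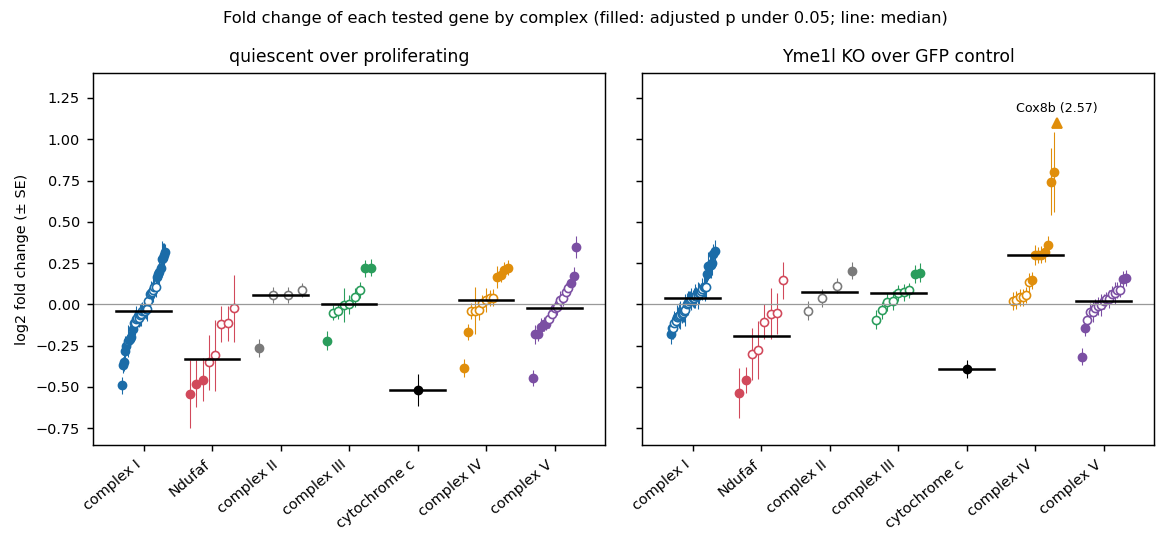
Log2 fold change (± SE) of every tested member, grouped by complex on the x axis, for quiescent over proliferating (left, n = 4 and 4 libraries) and Yme1l KO over GFP control (right, n = 3 and 3); filled points were called at adjusted p under 0.05, black lines are medians, and the triangle marks Cox8b, which lies off the scale at 2.57. All 8 Ndufaf genes lay below 0 on the left, and all 15 tested complex IV genes lay above 0 on the right. Of the 15, Cox8b passed the filter on low counts through the KO libraries alone, and the median line of complex IV on the right includes it.

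Among the redox and catalytic subunits of complex I, the core, 5 of 7 genes were lower in quiescent cells and 1 was higher, beside 35.5% and 29.9% of all genes, with a median of -0.19. Ndufs7 (ENSMUSG00000020153, chromosome 10, 80084955 to 80092628, GRCm39), which carries the iron-sulfur cluster next to the quinone site, stood at 119, 125, 129.5 and 119 CPM in proliferating replicates 1, 2, 4 and 5 and at 106, 91.2, 94.1 and 96.3 CPM in quiescent replicates 1 to 4. The groups did not overlap, with a log2 fold change of -0.35 (SE 0.06, adjusted p = 5.97e-05). Ndufs3, Ndufv2 and Ndufs8 were called lower too (-0.21, -0.21 and -0.15), and Ndufv1, which binds NADH, was at -0.04 (adjusted p = 0.451). The call of Ndufs3 was lost without quiescent replicate 1 or 4, that of Ndufv2 without quiescent replicate 3 or 4, and that of Ndufs8 without proliferating replicate 2 or 4 or any 1 quiescent library. The number of core genes called lower was 3 without quiescent replicate 1, 3 without replicate 2, 2 without replicate 3 and 1 without replicate 4, and it was 2 with the GC trend and 1 with the length trend removed.

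Ndufs1, the largest core subunit, was the core gene called higher. It read 61.2, 63.8, 57.1 and 62.1 CPM in proliferating libraries and 66.0, 93.7, 67.9 and 66.4 CPM in quiescent libraries, where replicate 2 was far above the others. This gave a log2 fold change of 0.27 (SE 0.11, adjusted p = 0.0431). It was 0.21 (adjusted p = 0.00606) without that library, and the call was lost without any 1 of the 4 proliferating replicates; over all alternatives the adjusted p lay between 0.000788 and 0.338.

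The accessory subunits of complex I, which surround the core, had 7 of 30 genes called higher and 4 lower, both shares under the 29.9% and 35.5% of all genes. Ndufab1 (ENSMUSG00000030869, chromosome 7, 121684626 to 121701109), the acyl carrier protein that also serves mitochondrial fatty acid synthesis, was at 138, 136, 140.1 and 142 CPM in proliferating and 107, 94.0, 98.0 and 97.1 CPM in quiescent cells. Its change of -0.49 (SE 0.05, adjusted p = 4.41e-07) was the largest decrease among subunits of complex I. Ndufc2, a subunit of the membrane arm, fell from 153, 168, 173 and 176 CPM to 132, 129, 129 and 130.1 CPM, a log2 fold change of -0.37 (SE 0.05, adjusted p = 1.08e-05). Ndufb8 and Ndufb3 were lower by less (-0.25 and -0.28), and the call of Ndufb3 was lost without quiescent replicate 1, 3 or 4, in DESeq2 and with the length trend taken out, as was that of Ndufb8 with the length trend taken out.

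Of the accessory genes that rose, Ndufv3 (ENSMUSG00000024038, chromosome 17, 31739089 to 31750305), a small subunit of the NADH-oxidising tip, read 123, 125, 122 and 119.6 CPM in proliferating and 161, 142, 152 and 156 CPM in quiescent libraries. Every quiescent library was above every proliferating library, at a log2 fold change of 0.32 (SE 0.05, adjusted p = 3.75e-05). Ndufa3, a membrane-arm subunit, read 85.4, 81.6, 91.8 and 81.3 CPM and 117, 94.4, 96.5 and 111 CPM (0.30, SE 0.07, adjusted p = 0.00174). Ndufa1, Ndufb10, Ndufc1, Ndufa11 and Ndufa13 were higher by 0.17 to 0.28 on the log2 scale. Of these calls, that of Ndufc1 was lost without proliferating replicate 1, 2 or 5, that of Ndufa11 without replicate 2 and that of Ndufa13 without replicate 5, and the calls of all 5 were lost with library size alone.

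The 8 Ndufaf assembly factors all had negative fold changes in quiescent cells, and 3 were called lower, a share of the list close to the 35.5% of all genes. Their median was -0.33, beside -0.04 for the complex I subunits, and 5 to 8 of the 8 values were negative under every setting tried. Ndufaf2, a paralog of Ndufa12 that binds an intermediate of complex I, read 8.86, 10.9, 6.73 and 7.23 CPM in proliferating and 7.11, 5.14, 4.56 and 6.42 CPM in quiescent cells, where the groups overlapped. Its log2 fold change was -0.54 (SE 0.21, adjusted p = 0.0308), and the call was lost without proliferating replicate 1 or 2 or quiescent replicate 2, 3 or 4. It was also lost in DESeq2, with a replicate block and with the length trend taken out (adjusted p between 0.01 and 0.157 over all alternatives). Ndufaf7, a mitochondrial methyltransferase, was at 15.5, 17.7, 16.4 and 18.8 CPM against 10.3, 15.2, 13.0 and 10.2 CPM, a change of -0.48 (SE 0.14, adjusted p = 0.00712). Ndufaf5, which hydroxylates Ndufs7, was at 13.6, 11.4, 12.6 and 13.9 CPM against 9.86, 8.64, 9.11 and 9.91 CPM, a change of -0.46 (SE 0.13, adjusted p = 0.00635). The Ndufaf5 call was lost with a replicate block in edgeR (adjusted p = 0.0905).

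Ndufaf6 and Ndufaf4 had fold changes of -0.35 and -0.31 that did not pass the test (adjusted p = 0.0788 and 0.219). Ndufaf8, Ndufaf3 and Ndufaf1 were at -0.12, -0.12 and -0.02 (adjusted p between 0.339 and 0.921). With mean levels of 4.77 to 27.2 CPM these genes carry few counts, and with standard errors of 0.10 to 0.21 changes of the size called in many subunits were not detectable.

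Sdhb, the iron-sulfur subunit of complex II, fell from 189, 179.8, 176 and 179 CPM to 160.4, 138, 156 and 148 CPM, a log2 fold change of -0.26 (SE 0.05, adjusted p = 0.000356). With the length trend taken out it was -0.13, and the call was lost. The flavoprotein Sdha and the membrane anchors Sdhc and Sdhd were not called, at 0.06, 0.09 and 0.06. In complex III, the cytochrome c1 gene Cyc1 was lower (-0.22, SE 0.06, adjusted p = 0.00296), a call lost without quiescent replicate 2, 3 or 4 and with the GC or length trend taken out. The small subunits Uqcr11 and Uqcrq were higher (0.22 and 0.22), and both calls were lost with library size alone (0.08 and 0.08). The core proteins Uqcrc1 and Uqcrc2 and the Rieske gene Uqcrfs1 were within -0.05 to 0.00 and were not called.

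Cycs (ENSMUSG00000063694, chromosome 6, 50539543 to 50543518) encodes cytochrome c, the carrier between complexes III and IV that also starts caspase activation when it leaves mitochondria. It was at 91.0, 118, 104 and 108 CPM in proliferating and 75.2, 84.3, 62.0 and 71.6 CPM in quiescent libraries, with every quiescent value below every proliferating one. The log2 fold change of -0.52 (SE 0.10, adjusted p = 0.000601) was the second largest decrease among all members after Ndufaf2.

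In complex IV, cytochrome c oxidase, 4 of 13 tested genes were called higher and 2 lower in quiescent cells, the first a share near the 29.9% of all genes and the second under the 35.5%. Cox7c, a small subunit, fell from 172, 194, 192 and 187 CPM to 156, 138, 134 and 143 CPM (-0.39, SE 0.06, adjusted p = 2.08e-05), and Cox5a was lower by less (-0.17), a call lost without any 1 quiescent library, with RLE size factors, in DESeq2 and with the length trend taken out. Cox6a1, Cox7a2l, Ndufa4 and Cox7b were higher by 0.17 to 0.22, the calls of all 4 were lost with library size alone, and that of Cox7b also without proliferating replicate 1, 2 or 5. Cox4i1, Cox8a and Cox6c, which rose in the KO, were at 0.01, 0.04 and 0.03 and were not called.

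In ATP synthase 3 of 17 tested genes were called higher and 6 lower, beside 29.9% and 35.5% of all genes. The first share is under that of all genes and the second near it. Of 5 genes of the F1 head 3 were lower (1 in DESeq2), as were 2 of 3 genes for the c subunit. Of 5 small membrane subunits 3 were higher. Atp5mpl (ENSMUSG00000021290, chromosome 12, 111927809 to 111933411), a small proteolipid of the membrane part, rose from 59.3, 66.9, 67.5 and 68.5 CPM to 88.9, 86.4, 77.9 and 80.2 CPM, the largest increase among the members at 0.35 (SE 0.07, adjusted p = 0.000211). Atp5b was lower by 0.12 (SE 0.04, adjusted p = 0.0121), and that call was lost without any 1 quiescent library, as was that of Atp5c1 (-0.18). Atp5e (-0.14, adjusted p = 0.0321) and Atp5g3 (-0.12, adjusted p = 0.0239) were lower too, but both changed sign with the length trend taken out and Atp5e also with the GC trend taken out, while Atp5l (0.13) changed sign with library size alone, as Cox7b did with the GC trend taken out. Atp5j of the peripheral stalk was called at -0.18 and Atp5md at 0.17. The calls of Atp5e, Atp5g3 and Atp5j were lost without any 1 quiescent library, those of Atp5e and Atp5g3 also without proliferating replicate 5 and that of Atp5e without proliferating replicate 2; that of Atp5l was lost without proliferating replicate 1, 2 or 4 and that of Atp5md without proliferating replicate 1. With RLE size factors and in DESeq2 the calls of Atp5b, Atp5e, Atp5g3 and Atp5j were lost. Atp5a1, the alpha subunit, was at -0.02 (adjusted p = 0.668).

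In Yme1l KO cells more of the called members were higher than lower, and complex IV held 9 of the 21 that were higher. Cox6c, Cox6a1, Cox8a, Cox7a2l and Cox4i1 were higher by 0.30 to 0.36 on the log2 scale, with Ndufa13 and Ndufv3 of complex I at similar sizes. Ndufaf2, Ndufaf4, Cycs and Atp5g1 were lower. Of 91 members tested, 21 were called higher and 6 lower, where 25.4% of all 12625 genes tested were higher, 26.2% lower and 51.6% changed in either direction. The share of members called higher was thus near that of all genes, and fewer members were called lower. The median was 0.04 over the members and 0.00 over all genes. At a change of at least 1.5-fold 3 members were called, all of them low isoforms of complex IV, beside 17.8% of all genes. Among these 3, and among the 21, Cox8b passed the filter on low counts through the KO libraries alone. With the length trend removed 30 members were higher and 4 lower.

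All 15 tested genes of complex IV had positive fold changes in the KO, with a median of 0.30, and 9 were called higher and 0 lower (10 and 0 at an unadjusted p under 0.05, 7 and 0 in DESeq2), beside 25.4% and 26.2% of all genes. Of these, Cox8b passed the filter on low counts through the KO libraries alone, so its direction was set by the filter and adds no support to these counts. The medians over all tested complex IV genes given here include Cox8b. Among the 11 common subunits 5 were called higher and 0 lower, and their median was 0.13. The 3 tested cell-type isoforms, Cox8b among them, were all called higher, with a median of 0.80. Cox7a2l was called at 0.30. At least 13 of the 15 were positive under every setting tried, and the median stayed between 0.22 (without KO replicate 3) and 0.35. Relative to the GFP control mean, the median tested gene of complex IV was at -0.04 to 0.03 in the 3 controls and at 0.20, 0.24 and 0.34 in KO replicates 1 to 3. Cox4i1 (ENSMUSG00000031818, chromosome 8, 121394961 to 121400946), the largest nuclear subunit, read 299, 292 and 312 CPM in the controls and 347, 356 and 407 CPM in the KO, where replicate 3 was highest, a change of 0.30 (SE 0.06, adjusted p = 0.000825).

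Cox6c (ENSMUSG00000014313, chromosome 15, 35926032 to 35938392) read 149, 149 and 155 CPM against 191, 184 and 207 CPM, a change of 0.36 (SE 0.05, adjusted p = 6.97e-05). Cox6a1 (ENSMUSG00000041697, chromosome 5, 115483701 to 115487040) read 179, 171 and 181 CPM against 204, 219.8 and 238 CPM, a change of 0.32 (SE 0.06, adjusted p = 0.000357). Cox8a (ENSMUSG00000035885, chromosome 19, 7192518 to 7194981) read 262, 245 and 255 CPM against 297, 320.0 and 321 CPM, a change of 0.30 (SE 0.05, adjusted p = 0.00019). In each of these small structural subunits every KO library was above every control.

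Cox7a2l (ENSMUSG00000024248, chromosome 17, 83809347 to 83824759) encodes a factor that joins complexes III and IV into supercomplexes, and C57BL/6 mice are known to carry a shortened form of it. It was at 193, 185 and 194 CPM in controls and 230.0, 231 and 242 CPM in KO libraries, a log2 fold change of 0.30 (SE 0.05, adjusted p = 0.000132). Ndufa4 was higher by 0.15, a call lost without GFP control replicate 2 or 3 or KO replicate 1, with library size alone, in DESeq2 and in limma. The other 6 common subunits (Cox5a, Cox7c, Cox7b, Cox7a2, Cox6b1 and Cox5b) were at 0.02 to 0.13 and were not called. Cox5a, the least changed of them, was at 114, 124 and 126 CPM and 123, 125 and 119.8 CPM, and in each of these 6 the groups overlapped.

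**Figure D2:**
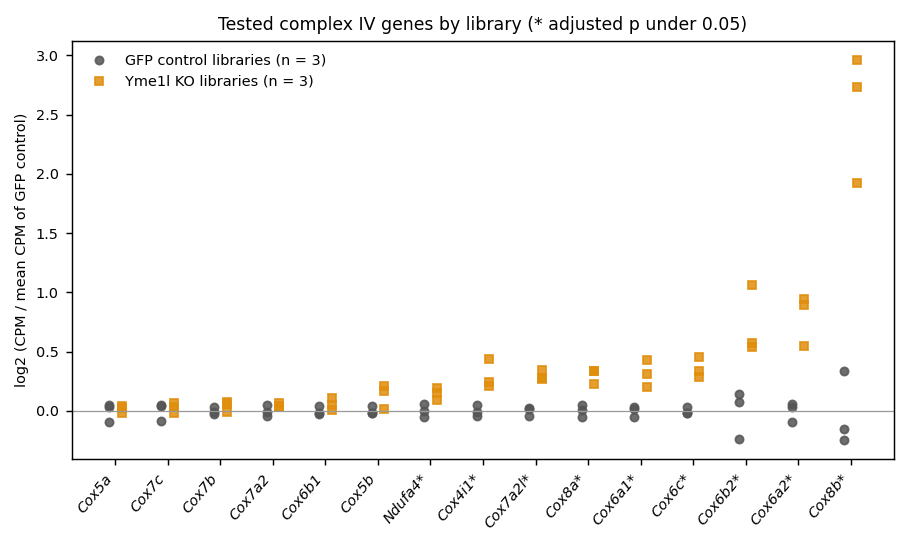
Log2 ratio of CPM to the mean of the GFP controls (y axis) for the 15 tested complex IV genes (x axis, ordered by fitted fold change), with 1 point for each of the 3 GFP control (circles) and 3 Yme1l KO (squares) libraries; asterisks mark adjusted p under 0.05. The KO points of the 9 called genes all lie above their controls, which is not separate support for the calls. Those of Cox5a, Cox7c and Cox7b overlap their controls.

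In the second experiment cell-type isoforms of complex IV were present at low levels, and 3 were higher in the KO. Of these 3, Cox8b passed the filter on low counts through the KO libraries alone, so its direction was set by the filter. Cox8b, the heart and muscle isoform of Cox8, had 3 or 4 counts in each control and 12 to 25 in each KO library (0.305, 0.429 and 0.287 against 2.66, 1.29 and 2.26 CPM), a log2 fold change of 2.57 (SE 0.45, adjusted p = 0.000253) that rests on few reads. Cox6a2, the heart and muscle isoform of Cox6a, was at 2.14, 1.93 and 2.11 CPM in controls and 3.82, 3.01 and 3.96 CPM in the KO (0.80, SE 0.24, adjusted p = 0.0126), and Cox6b2, the testis isoform of Cox6b, at 4.48, 4.29 and 3.45 CPM and 6.05, 5.91 and 8.49 CPM (0.74, SE 0.20, adjusted p = 0.00664). In TPM, Cox8b made up 0.270% ± 0.0701 of the Cox8 genes in controls and 1.32% ± 0.485 in the KO (SD, n = 3), and Cox6b2 made up 2.90% ± 0.471 and 4.70% ± 0.648 of the Cox6b pair. In the first experiment Cox6b2 was not as low, at 82.1 ± 7.22 TPM in proliferating and 80.5 ± 16.0 TPM in quiescent cells (SD, n = 4). It was not called there (-0.04, adjusted p = 0.821). The Cox6a2 call was lost in DESeq2 (adjusted p = 0.0525, the highest over the alternatives). The 6 muscle markers listed were at a summed 1.72 to 2.34 CPM in controls and 1.36 to 2.15 CPM in the KO, with Ckm and Tnnt2 at 0 in every library of that experiment. Cox8c was at 0 in all 14 libraries, Cox7b2 had 1 count over all libraries, and Cox4i2 was at 0 outside the quiescent libraries.

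In complex I, 7 of 37 genes were called higher in the KO and 1 lower, both shares under the 25.4% and 26.2% of all genes, with a median of 0.04. Ndufa13 (GRIM-19) was at 91.7, 87.1 and 96.3 CPM in controls and 106, 114 and 126 CPM in the KO, a log2 fold change of 0.32 (SE 0.07, adjusted p = 0.000908). Ndufv3 was at 72.3, 70.2 and 75.0 CPM and 86.7, 87.2 and 94.8 CPM, a change of 0.30 (SE 0.06, adjusted p = 0.000621). Ndufa6 and Ndufb11 were higher by 0.25 and 0.24, as were Ndufa11 and Ndufa1 (0.24 and 0.23), of which the first was lost without GFP control replicate 2 or 3 or KO replicate 2, and the second without any 1 GFP control library or KO replicate 1 or 3. Ndufs7 was lower (-0.18, SE 0.06, adjusted p = 0.0262), a call lost without GFP control replicate 2 or 3 or KO replicate 1, in DESeq2 and with the length trend taken out. The calls of Ndufa11 and Ndufa1 were lost in DESeq2 too. Ndufb6, whose protein is a described YME1L substrate, was at 52.6, 51.7 and 52.7 CPM and 49.3, 53.8 and 49.7 CPM, a change of -0.04 (SE 0.07, adjusted p = 0.645) with overlapping groups.

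Of the Ndufaf genes 2 were lower in the KO, by edgeR and by DESeq2, a share of the list near the 26.2% of all genes called lower. Their median was -0.19, with 6 or 7 of the 8 values negative under every setting. Ndufaf2 (ENSMUSG00000068184, chromosome 13, 108139249 to 108295157) read 11.5, 16.0 and 16.0 CPM in controls and 8.82, 10.5 and 10.6 CPM in the KO, a log2 fold change of -0.54 (SE 0.15, adjusted p = 0.00756). Ndufaf4 (ENSMUSG00000028261, chromosome 4, 24898083 to 24905001), which acts with Ndufaf3 on the quinone-binding module, read 41.7, 41.3 and 38.9 CPM and 30.9, 30.0 and 27.7 CPM, a change of -0.46 (SE 0.08, adjusted p = 0.000214). Both calls held under all 16 alternative settings that kept the call rule. Ndufaf3, its partner, was at 0.15 (adjusted p = 0.292), and the other 5 were at -0.30 to -0.05 and were not called.

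In complexes II and III, Sdhc (from 148, 146 and 140.3 to 159.5, 166 and 174 CPM), Uqcrh and Uqcr11 were higher, with log2 fold changes of 0.20, 0.19 and 0.18. The Uqcrh call was lost without GFP control replicate 1 or 2 that of Uqcr11 without GFP control replicate 2 or with the GC trend taken out, and that of Sdhc in limma. Sdha was at 0.11 (adjusted p = 0.0515), Sdhb at -0.04, Cyc1 at -0.04 and Uqcrc1 at 0.08. Cycs read 225, 209 and 220.5 CPM in controls and 174, 172 and 152 CPM in the KO, lowest in replicate 3, with a change of -0.39 (SE 0.06, adjusted p = 6.35e-05). Without KO replicate 3 it was -0.33.

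Of the 17 ATP synthase genes tested in the KO, 2 were higher, 2 lower and 13 not called, both shares under those of all genes. The 3 genes Atp5g1, Atp5g2 and Atp5g3 encode the same mature c subunit behind different import sequences. Atp5g1 (ENSMUSG00000006057, chromosome 11, 95959678 to 95966496) fell from 112, 112 and 109 CPM to 89.4, 88.8 and 89.2 CPM, a log2 fold change of -0.32 (SE 0.05, adjusted p = 0.000123). Atp5g2 was lower by less (-0.14), a call lost without any 1 GFP control library, in DESeq2, in limma and with the length trend taken out, and Atp5g3 was at 0.06 (adjusted p = 0.285). Atp5d of the central stalk and Atp5l were higher (0.16 and 0.15), the first lost without GFP control replicate 1 or 2 or with the GC trend taken out and the second without GFP control replicate 2 or 3. Atp5b and Atp5a1 were at 0.03 and 0.02.

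The shares of the 3 genes in c subunit RNA were also set side by side. In TPM, Atp5g2 gave 37.2% ± 1.53 of the sum in proliferating and 31.6% ± 1.08 in quiescent cells (SD, n = 4), while Atp5g1 gave 19.1% ± 0.429 and 21.9% ± 1.09. In the second experiment the share of Atp5g1 was 16.6% ± 0.299 in controls and 13.6% ± 0.588 in the KO, and that of Atp5g3 was 54.0% ± 0.636 and 58.7% ± 1.12 (SD, n = 3). The groups did not overlap in the shares of Atp5g1 and Atp5g2 in either experiment: that of Atp5g1 was higher in quiescent and lower in KO cells, and that of Atp5g2 was lower in both. No test was made of the shares.

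**Figure D3:**
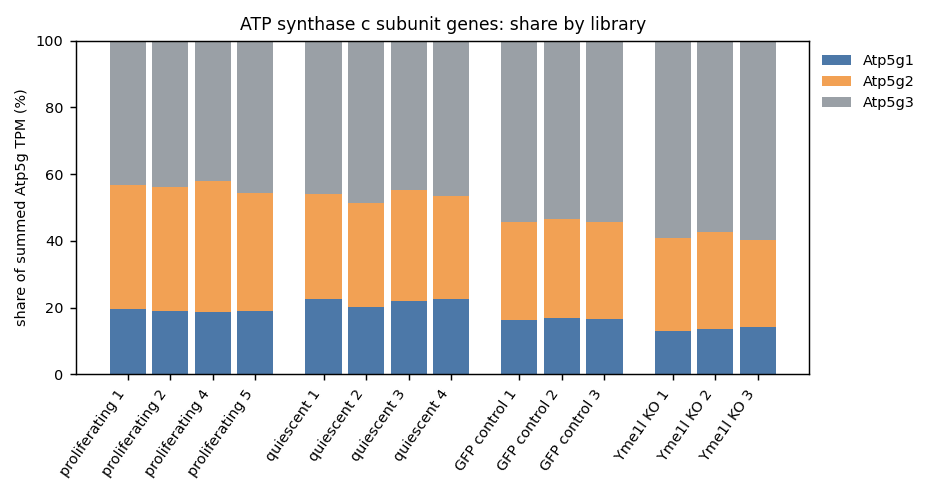
Share of the summed TPM of Atp5g1, Atp5g2 and Atp5g3 (y axis, percent) in each of the 14 libraries (x axis, grouped by state). Atp5g2 takes less in the 4 quiescent than in the 4 proliferating libraries, and Atp5g1 takes less in the 3 KO libraries than in the 3 GFP controls.

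The 2 experiments share no libraries, and 89 members were tested in both. Of these, 9 were higher in both (Ndufv3, Ndufa1, Cox6a1, Uqcr11, Ndufa11, Cox7a2l, Ndufa13, Ndufa4 and Atp5l) and 4 were lower in both (Ndufaf2, Cycs, Ndufs7 and Atp5g2). Over all 11477 genes tested in both, 14.8% were higher in both and 18.4% lower in both, so the 9 and 4 members are smaller shares than those of all genes. The 13 members called in the same direction were 32.5% of those called in quiescent cells and 52.0% of those called in the KO, beside 50.7% and 62.1% of all genes called. Another 26 members were called in quiescent cells alone, 11 in the KO alone and 38 in neither. Across the 89 members the fold changes of the 2 experiments had a Spearman correlation of 0.55, beside 0.50 across all genes; genes are not independent replicates.

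**Figure D4:**
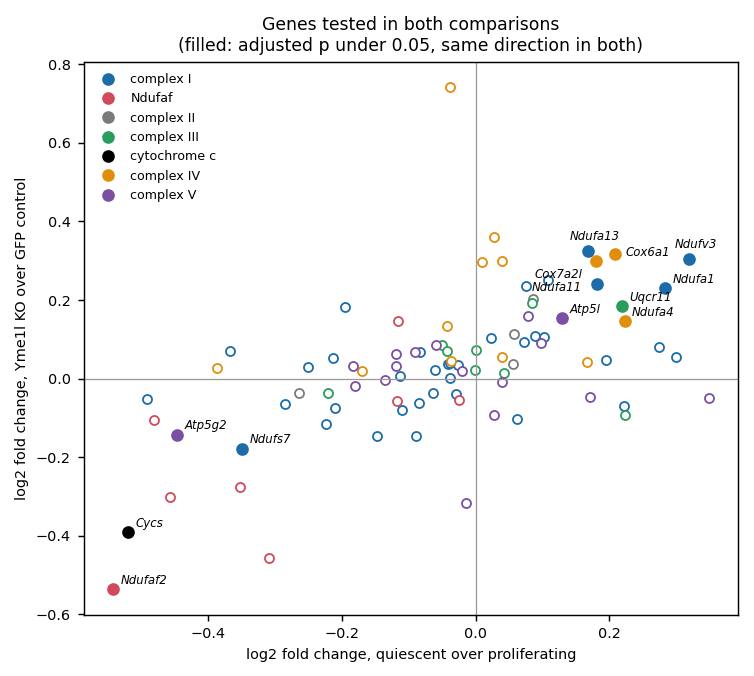
Log2 fold change in quiescent over proliferating cells (x axis) against Yme1l KO over GFP control (y axis) for the 89 members tested in both, coloured by complex, with filled points called in the same direction in both. Cycs and Ndufaf2 lie at the lower left and the 9 genes higher in both at the upper right.

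Some members were called in 1 experiment alone. Cox4i1, Cox8a and Cox6c rose in the KO and were not called in quiescent cells, and Ndufab1, Ndufc2 and Cox7c fell in quiescent cells and were not called in the KO. Whether these changes differ between the experiments was not tested, since the 2 experiments were fitted separately.

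**Figure D5:**
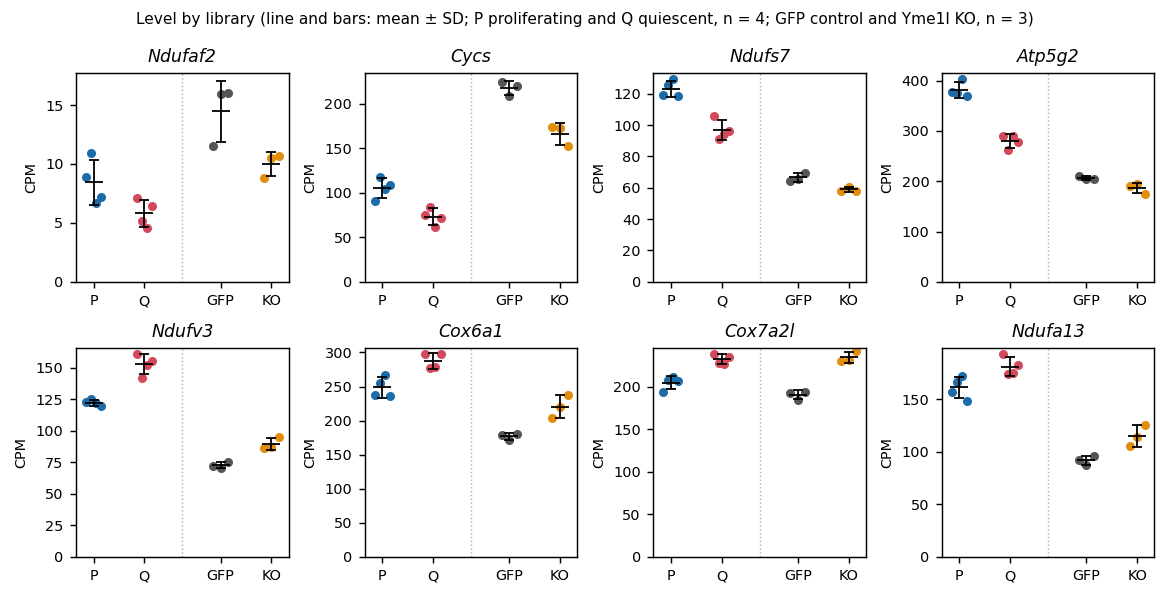
CPM of 4 genes lower in both comparisons (top row) and 4 higher in both (bottom row) in each library, with the mean ± SD; P is proliferating and Q quiescent (n = 4), GFP and KO are the second experiment (n = 3), and the dotted line separates the experiments, whose levels are not compared. Quiescent and proliferating values overlap for Ndufaf2 and are separate for the other 7 genes.

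Other assembly factors, listed apart from the Ndufaf names, were also more often lower than higher. Of 50 tested, 6 were higher and 17 lower in quiescent cells (median -0.12), and 3 rose and 9 fell in KO libraries (median -0.05), shares that are at or under those of all genes. By complex, 1 was higher and 4 lower of 10 for complex I, 0 and 2 of 4 for complex II, 0 and 0 of 5 for complex III, 5 and 8 of 26 for complex IV and 0 and 3 of 5 for complex V in quiescent cells. The count of 0 of 5 was also 0 at an unadjusted p under 0.05 and in DESeq2. In the KO the counts were 1 and 3 of 10, 0 and 1 of 4, 0 and 1 of 6, 2 and 4 of 25 and 0 and 0 of 5 (1 higher at an unadjusted p under 0.05, 0 in DESeq2). Coa1, Uqcc4, Uqcc5 and Uqcc6 matched no name in the table.

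Sco1, a copper chaperone of complex IV, was at a mean of 15.1 CPM in proliferating and 8.43 CPM in quiescent cells, a log2 fold change of -0.84 (SE 0.12, adjusted p = 1.53e-05). In the KO it was lower by less, at -0.29 (SE 0.11, adjusted p = 0.0342). Coa7 and Cmc2, also factors of complex IV, were lower in both comparisons: Coa7 at -1.13 and -0.40, and Cmc2 at -0.56 and -0.94 on the log2 scale, in quiescent and KO cells. Smim20 was higher in quiescent cells at 0.84 (SE 0.20, adjusted p = 0.00161). For complex I, Dmac1, Foxred1 and Timmdc1 were lower in quiescent cells (-0.27, -0.34 and -0.25), while Dmac1, Tmem186 and Ecsit were lower in the KO (-0.51, -0.44 and -0.42). Going the other way, Tmem126b was higher in quiescent cells at 0.54 (SE 0.20, adjusted p = 0.0285). Dmac2 was higher in the KO at 0.42 (SE 0.13, adjusted p = 0.0175). Sdhaf1 of complex II and the ATP synthase factors Atpaf1 and Atpaf2 were lower in quiescent cells (-0.43, -0.44 and -0.35), and Uqcc2 of complex III was lower in the KO (-0.39).

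The partner subunits encoded by mitochondrial DNA, 13 in all, were not called in quiescent cells. In edgeR 0 passed the test in either direction, beside 65.4% of all genes, and 0 had an unadjusted p under 0.05. In DESeq2 2 of them were higher. Their fold changes ranged from -0.92 to 0.67. Their share of counts varied between libraries of a group, from 0.313% to 0.568% in proliferating and from 0.359% to 0.588% in quiescent cells. In the KO 7 were higher and 1 lower, beside 25.4% and 26.2% of all genes, with a median of 0.28. Their share was 3.69% ± 0.171 in controls and 4.35% ± 0.0562 in the KO (SD, n = 3). mt-Nd5 rose by 0.46 (SE 0.05, adjusted p = 5.87e-06) and mt-Nd4 by 0.42 (SE 0.05, adjusted p = 2.13e-05), and mt-Nd6, the subunit encoded on the other strand, was lower at -0.73 (SE 0.11, adjusted p = 9.82e-05).

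Longer transcripts had slightly lower fold changes among the members (Spearman correlation with length -0.28 in quiescent and -0.24 in KO cells), while over all genes the correlation was 0.14 and 0.08. Other genes in the length range of the middle part of the members (2012 and 1949 genes within the interquartile range of the members' lengths) had medians of -0.13 and -0.04, below the -0.04 and 0.04 of the members.

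In the authors' deposited table of their own DESeq2 test, 19 members were higher and 11 lower in quiescent cells, of 95 with an adjusted p. In the authors' deposited table for the KO, 10 were higher and 4 lower of 91.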

How the data were processed

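Estimated counts per gene (expected counts), TPM values and length-scaled counts were deposited by the authors as salmon gene tables, one set per experiment. The deposited test tables hold log2 fold changes and adjusted p-values. Per the submitters' processing notes the build was GRCm39 and the test DESeq2 1.30.1 in R 4.0.3; aligner settings are not given in the sources used here. Library columns were matched to samples through IDs in the deposited design tables.

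Counts were rounded and tested per experiment in edgeR 4.0.16 (R 4.3.3) with TMM scaling, the filterByExpr filter and robust quasi-likelihood fits; a call needed a p under 0.05 after Benjamini-Hochberg adjustment over all genes. CPM use TMM-adjusted library sizes and are given as mean ± SD or by library. The test was checked on simulated data. Of the 99 members, 89 and 91 passed the filter on low counts, and 8 passed in neither experiment. Genes can share reads with near-identical pseudogenes. Alternatives were RLE size factors, library size alone, DESeq2 1.42.0, limma 3.58.1 on log2(TPM + 1), length-scaled counts, 2 filters, a 1.5-fold threshold, a replicate block and leaving out each library; removing GC and length trends (GENCODE M21 transcripts, GRCm38) was added after seeing the data.

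Members and lists were chosen with earlier results of these data known. Full statistics went to Yme1l1, called members with the largest changes at 5 CPM or more, defining subunits, isoform sets, Ndufaf genes, members called in both comparisons and up to 4 called genes of each other list. Read counts limit precision for genes of a few CPM. No 2 libraries were duplicates. The values of 1 member are not reported here.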

Additional observations from a re-analysis of the deposited data

Results flagged for a closer look

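Each member tested in the first experiment was examined for a library far from the other 3 of its group (Dixon's gap test at 95%), 178 groups in all, and 9 were found (5.06%), where chance gives about 1 in 20. Groups of 3 libraries were not examined. Quiescent replicate 2 held 3 of the 9: Ndufs1 was at 93.7 CPM where the other quiescent libraries were at 66.0 to 67.9 CPM, Uqcrfs1 at 150 CPM against 168 to 172 CPM, and Ndufb8 at 169.7 CPM against 185 to 188 CPM. Quiescent replicate 1 held 3: Cox6b2 was at 20.2 CPM against 13.2 to 13.7 CPM, Ndufaf8 at 25.1 CPM against 18.4 to 19.4 CPM, and Ndufb4 at 49.0 CPM against 45.2 to 45.7 CPM. Atp5l was at 224 CPM in quiescent replicate 3 against 237 to 239 CPM. In proliferating cells, Ndufa1 was at 21.3 CPM in replicate 4 against 24.8 to 25.3 CPM, and Sdhc was at 277 CPM in replicate 5 against 262 to 263 CPM.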

How the results depend on the processing

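In the quiescent comparison, 17 higher and 23 lower calls became 19 and 17 with RLE size factors, 3 and 49 with library size alone, 20 and 15 with DESeq2, 19 and 22 with limma on log2(TPM + 1), 29 and 16 with the GC trend removed and 34 and 8 with the length trend removed. Leaving out each library gave 12 to 37 higher and 10 to 23 lower calls. The complex I core genes called lower (5) were 2 with the GC and 1 with the length trend removed and 1 to 5 without each library. The Ndufaf genes called lower (3) were 6 with library size alone and 2 to 3 without each library. With a 1.5-fold threshold all 4 of these counts were 0. The cause of these shifts was not tested.

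In the KO, 21 higher and 6 lower calls ranged from 17 to 30 and from 4 to 9 over the settings that kept the call rule and all libraries, and from 14 to 24 and 4 to 7 without each library. Complex IV genes called higher (9) were 7 to 10, and 8 to 10 without each library. These counts include Cox8b, which passed the filter on low counts through the KO libraries alone. The Ndufaf genes called lower stayed 2, also without each library (2 to 2). With a 1.5-fold threshold 3 members and 3 complex IV genes were called higher, 0 members lower and 0 Ndufaf genes lower. The log2 fold change of Yme1l1 was between -2.40 and -2.0 (limma), and between -2.39 and -2.31 without each library.

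Of the 40 calls in quiescent cells 10 held under all 18 alternatives and 30 were lost in 1 to 11. Of these, 14 were lost with library size alone, 15 with the length trend and 13 with the GC trend removed. The replicate block lost 13 and DESeq2 lost 8. Of the 27 KO calls 16 held under all 16 and 11 were lost in 1 to 9. Sign changes among called genes were Atp5e (0.0058 with the GC and 0.0187 with the length trend removed), Atp5g3 (0.0164, length trend removed), Atp5l (-0.0083, library size alone) and Cox7b (-0.10, GC trend removed), all in quiescent cells. The share of counts was 1.73%, 1.53%, 1.30% and 1.33% (proliferating, quiescent, GFP control, KO) and 4.40%, 4.42%, 3.48% and 3.66% in TPM.

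The labels do not say whether libraries with the same replicate number belong together. Their deviations from the group means had correlations of -0.24, -0.35 and -0.01 in the first experiment and 0.00, -0.05 and -0.01 in the second. Pairs with different numbers ranged from -0.37 to 0.51 and from -0.02 to 0.03. These few values cannot show whether libraries were paired, under these or other numbers. With the replicate block the quiescent calls were 14 higher and 13 lower, with 3 complex I core genes and 1 Ndufaf gene lower, and the KO calls were 20 higher and 6 lower, with 9 complex IV genes higher and 2 Ndufaf genes lower.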
